A study of Homo sapiens with 12 samples.

Results

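The segment described here lies on the long arm of chromosome 22 and holds the APOBEC3 gene cluster. It was taken as the genes whose counted coordinates on GRCh38 place their start between 36226203 and 39522685 on chromosome 22 and whose mean over the 6 Cal27 libraries was at least 1 CPM, that is counts scaled to a library of 1000000 counts on genes. Of 142 genes of the segment, 66 met this level, out of 58051 Ensembl genes in the files and 13462 genes at the same level anywhere in the genome. The segment was chosen because many of its genes were raised in Cal27 ErlR, so every value of Cal27 ErlR against its parental cells is a description here and carries no test.

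RNA with poly(A) selection was sequenced from 2 established human lines of squamous carcinoma of the head and neck (HNSCC), FaDu from a hypopharyngeal tumor and Cal27 from a tongue tumor. Each line was studied as untreated parental cells and as 2 models with acquired resistance, AfaR to the ERBB family inhibitor afatinib and ErlR to the EGFR inhibitor erlotinib. The 6 groups were FaDu parental, FaDu AfaR, FaDu ErlR, Cal27 parental, Cal27 AfaR and Cal27 ErlR, with 2 libraries each, 12 in all. The labels give all 12 the genotype WT, call the libraries of a group biological replicates and give 1 batch for all of them. Resistance was raised by growth in stepwise higher drug, and the models were kept under drug and taken off it before experiments. The sources used here do not say whether a model was selected more than once, so p-values measure only the spread between libraries within groups, which may be technical. This spread was pooled over the groups of a line, or over all 6 groups for the comparison between lines. In RNA from whole cultures, a change in the share of cells that use a gene and a change in its RNA per cell cannot be told apart.

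APOBEC3 enzymes are cytidine deaminases that turn cytosine into uracil in single-stranded DNA. They restrict retroviruses and retroelements, and in many tumors, HNSCC among them, cytosine changes in the contexts they prefer are a common source of mutation. The human genes stand head to tail on 22q, and their sequences are so alike that reads can be shared between members. The rest of the segment holds genes of unrelated function, from apolipoprotein L genes at its centromeric end to ATF4, the transcription factor of the integrated stress response, at its telomeric end.

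Between 16334937 and 23399259 counts per library fell on genes, with a median of 16584450, and the ERCC spike-ins took from 3.86% to 5.82% of counts. All 8 markers of squamous epithelium reached 1 CPM in both libraries of every group except Cal27 AfaR, where 7 of 8 did. Their summed level there was 685 to 825 CPM, against 3774 to 5143 CPM in Cal27 parental cells. The 5 fibroblast markers summed to 294 to 299 CPM in Cal27 AfaR and to 30.2 to 41.9 CPM in the parental cells, with none of the 5 at 0 in either group. In each of these groups 3 of the 5 reached 1 CPM in both libraries. Both AfaR libraries lay above both parental libraries for 3 of the 5 and below them for 1, against 36.2% and 36.0% of all genes. In Cal27 ErlR the squamous markers summed to 5172 to 5176 CPM and the fibroblast markers to 4.74 to 10.0 CPM, with 1 of the 5 at 0. The 4 endothelial markers summed to 2.53 to 6.15 CPM in Cal27 ErlR, with 1 of the 4 at 0, and to 32.9 to 34.4 CPM in the parental cells. Blood markers summed to between 8.57 and 15.7 CPM over all libraries, with 2 or 3 of the 5 at 0 in each group. The part of these markers in the results below was not tested.

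Of the 66 genes, 59 were protein coding, and 35 lay on the plus strand and 31 on the minus strand. They spanned 3293 kb from APOL2 to ATF4. Another 76 genes of the segment stayed under the level, 26 of them with no count in any library and 18 of them protein coding, including SOX10, the melanocyte and neural crest factor, at 0 CPM. SNORD43, a small nucleolar RNA inside RPL3, with 1.08 CPM, and ENSG00000279080 with 1.30 CPM lay just above the level. FAM227A with 0.856 CPM and NCF4 with 0.705 CPM lay just below it. Among the members, 16 pairs overlapped, 9 of them on opposite strands, and these pairs involved 28 of the 66. How the counting treated strand and reads that fit both genes of a pair is not given in the sources used here, so values of overlapping genes are uncertain.

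RefSeq promoter windows on GRCh38.p14 were found for 38 of the 66 members by symbol. The 250 bases before the RefSeq start are shown for 3 of them, ELFN2 and CDC42EP1, near neighbors that stood far apart in Cal27 ErlR, and CBX7, the lowest of the chromatin genes there. ELFN2 (chr22:37427480-37427729) and CBX7 (chr22:39152681-39152930) are on the minus strand and CDC42EP1 (chr22:37560230-37560479) is on the plus strand, and each is written 5′ to 3′ on its own strand. Capitals mark the letters of the motifs that were found among those searched on both strands, which were the GC box (GGGCGG), the CCAAT box (CCAAT), the NF-kB site (GGGA and CC with any 4 bases between), the TATA box (TATAAA), the CRE (TGACGTCA), the AP-1 site (TGAGTCA) and the ISRE core (GAAA at both ends with any 2 bases between).
ELFN2: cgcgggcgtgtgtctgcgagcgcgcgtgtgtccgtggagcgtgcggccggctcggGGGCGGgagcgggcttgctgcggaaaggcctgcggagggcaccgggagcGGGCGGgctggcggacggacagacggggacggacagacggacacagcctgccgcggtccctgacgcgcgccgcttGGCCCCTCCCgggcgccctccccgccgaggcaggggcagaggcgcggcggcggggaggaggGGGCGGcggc
CDC42EP1: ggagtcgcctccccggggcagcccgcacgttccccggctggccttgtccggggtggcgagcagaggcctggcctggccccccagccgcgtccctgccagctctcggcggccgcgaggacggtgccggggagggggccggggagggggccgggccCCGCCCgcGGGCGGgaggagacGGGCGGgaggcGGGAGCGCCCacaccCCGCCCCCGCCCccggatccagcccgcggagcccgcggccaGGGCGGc
CBX7: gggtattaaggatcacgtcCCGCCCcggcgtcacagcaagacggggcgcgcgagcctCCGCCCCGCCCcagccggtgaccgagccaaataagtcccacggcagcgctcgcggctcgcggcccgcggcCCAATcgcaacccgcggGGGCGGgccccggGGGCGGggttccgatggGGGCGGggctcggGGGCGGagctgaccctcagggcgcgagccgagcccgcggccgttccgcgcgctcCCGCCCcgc

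ELFN2 held 3 GC boxes and 1 NF-kB match, CDC42EP1 held 6 GC boxes and 1 NF-kB match, and CBX7 held 8 GC boxes and 1 CCAAT box. Neighboring GC boxes can share letters. In windows of 250 bases taken the same way for all 35116 RefSeq promoters, 42.6% held a GC box, 32.0% a CCAAT box, 22.6% an NF-kB match, 10.7% a TATA box, 4.20% an AP-1 site, 3.02% an ISRE core and 1.65% a CRE. The last 4 were not among the letters of the 3 windows shown. A comparison of all members with other promoters was void, because windows were matched for fewer than 80% of the members.

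Values below are TMM-normalized CPM, that is CPM after edgeR's scaling of each library, and differences are log2 fold changes from edgeR's fit of the 6 libraries of a line, with the SE of that fit. A gene was called where edgeR's quasi-likelihood test gave a Benjamini-Hochberg adjusted p-value under 0.05 over all genes tested and the log2 fold change was over 1 in size. The biological coefficient of variation was 15.3% in Cal27 and 14.5% in FaDu.

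In Cal27 ErlR, the rise was not spread evenly over the segment but filled its middle. The median log2 fold change over the 66 members was 1.08, against -0.03 over all genes tested. Taken 10 at a time from the centromeric end, the members had medians of -0.14, 1.45, 1.91, 1.35, 1.63 and 0.04, and the last 6 had -0.49. The 30 expressed genes before the segment had a median of 0.03, the 30 after it -0.15, and the other 268 expressed genes of chromosome 22 -0.12. By the same limits, 32 members were called higher and 6 lower, where 3.56% and 9.92% of all genes were, and nothing is read from this since the choice of the segment used it. Both ErlR libraries lay above both parental libraries for 44 members and below them for 13, a separation found upward in 32.4% and downward in 34.8% of all genes.

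**Figure D1:**
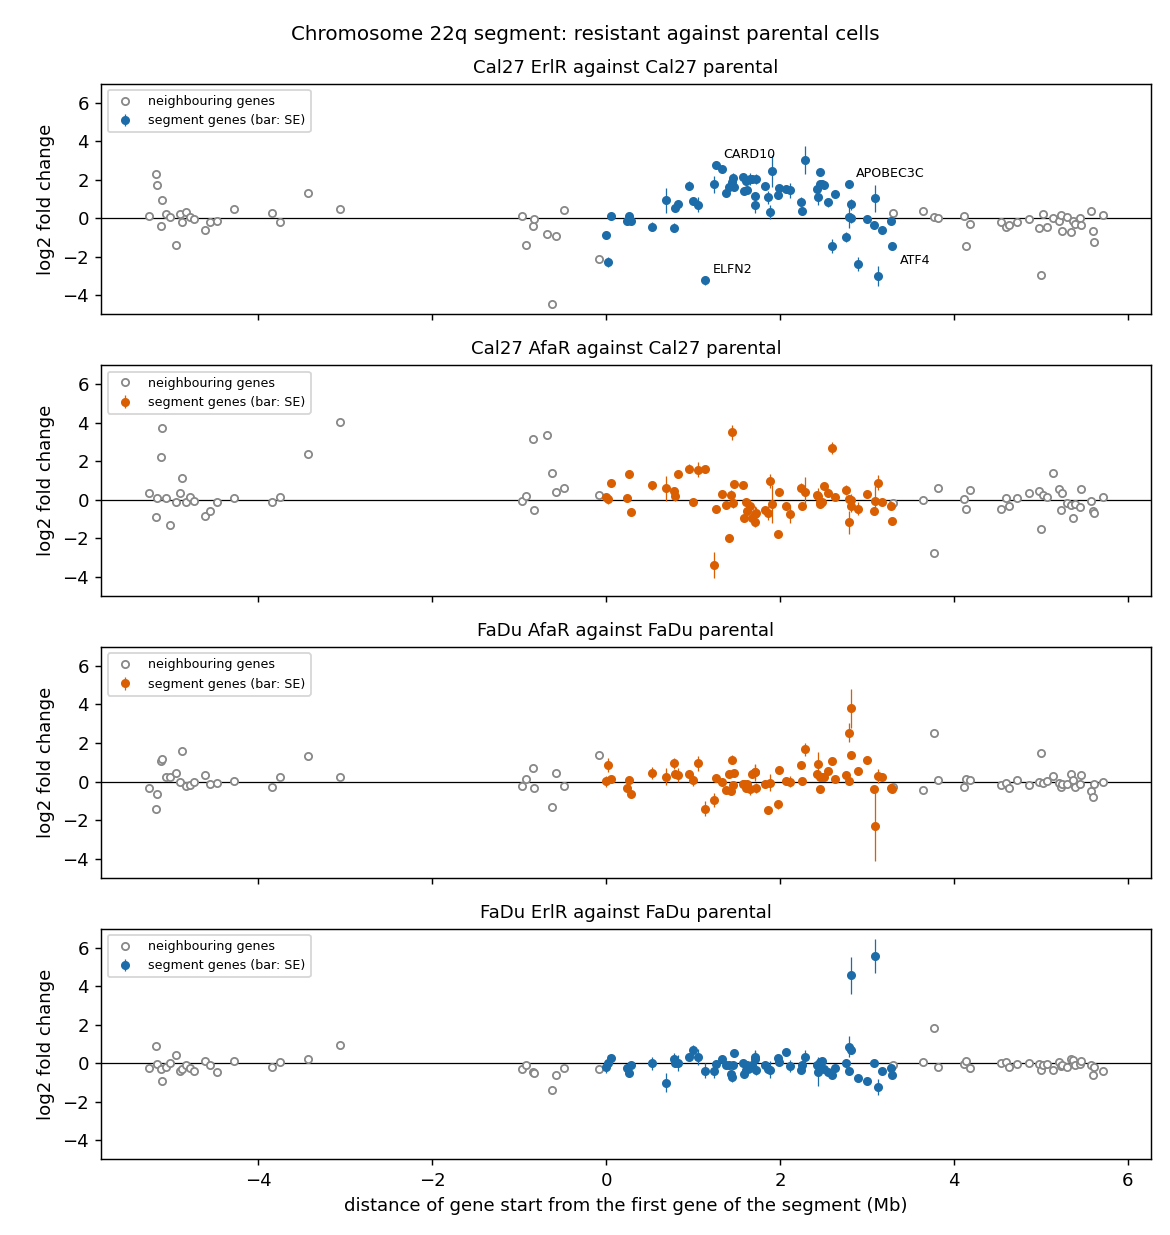
Log2 fold change of each gene against the parental cells of its line (vertical axis), by distance of its start from the first gene of the segment in Mb (horizontal axis), in 4 panels for the 4 resistant models. Filled points are the 66 members with SE bars and open points the 30 expressed genes on each side, and only the Cal27 ErlR panel shows a raised run in the middle of the segment, where the median of members 21 to 30 was 1.91.

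The run was bounded after its values were seen as the 38 members from MFNG, a glycosyltransferase of the Notch pathway, to CBX6, a Polycomb protein. Its median was 1.61, and 37 of the 38 log2 fold changes were positive. Libraries were apart upward for 35 of the 38. The exceptions were NPTXR, a neuronal pentraxin receptor, which lay lower in both ErlR libraries (-1.44), and DDX17 and PLA2G6, an RNA helicase and a phospholipase, whose libraries overlapped (0.37 and 0.32). Of 21 genes of the run with at least 20 CPM in parental cells, 20 lay higher in both ErlR libraries, with a range of 0.37 to 2.77. Of 17 genes under 20 CPM, 15 did, with a range of -1.44 to 3.01. In Cal27 AfaR the same 38 genes had a median of -0.18. In FaDu AfaR they had a median of 0.04 and in FaDu ErlR -0.11. The 31 expressed genes around NRAS, elsewhere in the genome, are another raised stretch and no neutral yardstick. Their median in Cal27 ErlR was 1.82, with 30 positive and 1 negative log2 fold change. The median of all genes tested was -0.03.

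Neither edge of the segment showed the rise. APOL2 and APOL1, apolipoprotein L genes, stood at the first edge, and APOL1, the trypanosome lytic factor, lay at 152 and 225 CPM in parental cells and at 29.7 and 48.8 CPM in ErlR (-2.26). APOL2 went from 83.9 and 109 CPM to 47.0 and 59.0 CPM (-0.86). MYH9, the heavy chain of non-muscle myosin IIA, overlapped between the groups (3216 and 2758 CPM against 3245 and 3181 CPM). All of these genes lie outside the run. At the other edge, TAB1, an adaptor of the kinase TAK1, had -0.63, MIEF1, a mitochondrial fission factor, had -0.14, and ATF4 had -1.42. The nearest expressed genes before the segment were APOL6 (-0.95), RBFOX2 (0.44) and APOL3 (-2.14), and the nearest after it were RPS19BP1 (0.28), UQCRFS1P1 (0.36) and FAM83F (0.08).

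The rise had begun before the run, with a gap at ELFN2. The 4 members before ELFN2 lay higher in both ErlR libraries, with log2 fold changes of 0.74 for KCTD17, 1.69 for C1QTNF6, 0.91 for RAC2 and 0.70 for CYTH4. ELFN2, a synaptic adhesion protein gene and the last member before MFNG, had 10.7 and 12.0 CPM in Cal27 parental cells and 1.23 and 1.18 CPM in ErlR (-3.23, SE 0.23), the lowest value of the segment. A non-coding entry with the same symbol, at 0.0705 CPM over the Cal27 libraries, overlaps it by 59486 bases on the same strand. Reads that fit both may be shared or lost. CARD10, a scaffold that links receptors to NF-kB, had 104 and 72.9 CPM in parental cells and 614 and 587 CPM in ErlR (2.77, SE 0.18), the highest value among members with a mean of at least 5 CPM. The next highest were CDC42EP1, an effector of the GTPase CDC42, with 66.5 and 46.1 CPM against 321 and 335 CPM (2.54, SE 0.19), and TOMM22, a receptor of the mitochondrial import pore, with 129 and 106 CPM against 646 and 599 CPM (2.40, SE 0.18). For each of these 3 the groups were far apart, with every ErlR library several times above every parental library. The next lowest members with a mean of at least 5 CPM were CBX7, a Polycomb reader, with 16.6 and 18.0 CPM against 1.88 and 4.72 CPM (-2.38, SE 0.38), and APOL1. Under that level, SYNGR1, a protein of synaptic vesicles, had -3.01 (SE 0.53).

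**Figure D2:**
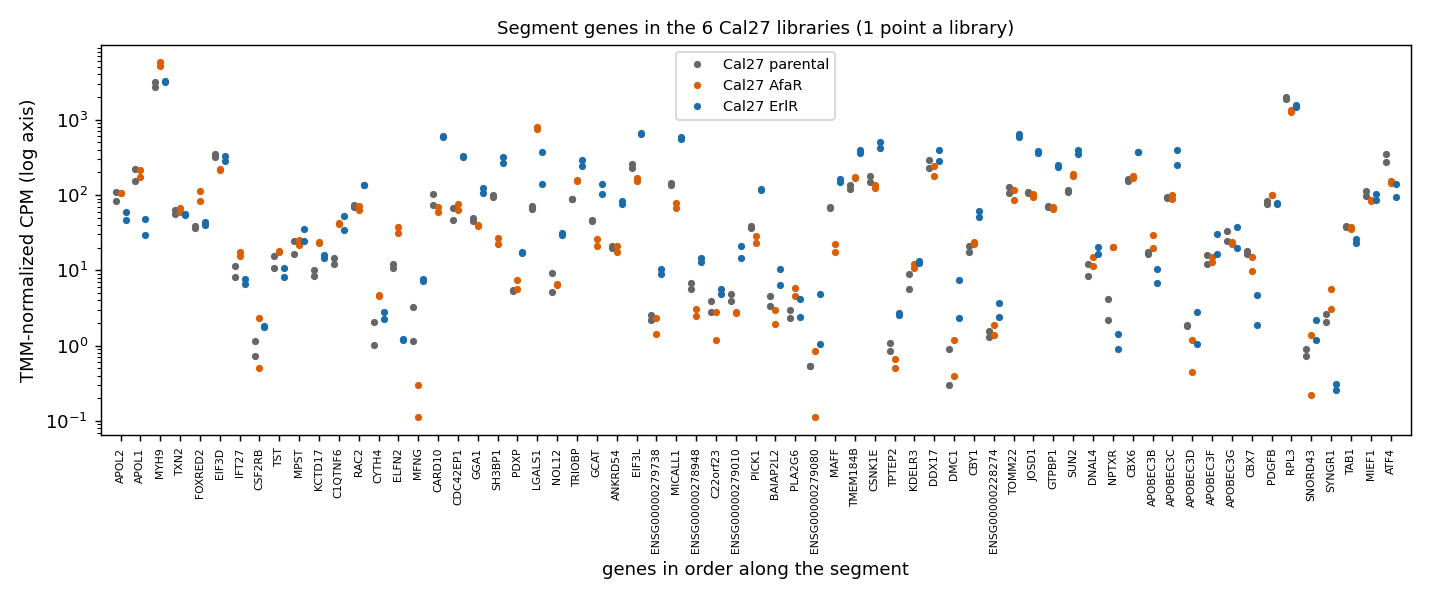
TMM-normalized CPM (log axis) of 65 of the 66 members, in order along the segment, in each of the 6 Cal27 libraries (1 point a library). From CARD10 to CBX6 most ErlR points lie above the parental and AfaR points, while ELFN2, CBX7 and SYNGR1 have ErlR points below, and the AfaR points of LGALS1 (765 and 804 CPM) lie highest for that gene.

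The APOBEC3 genes did not move together. Levels between genes are given per length, in CPM per kilobase of exon (FPKM, mean ± SD, n = 2). In FaDu parental cells the order was APOBEC3B (57.4 ± 3.98), APOBEC3C (52.0 ± 3.57), APOBEC3F (1.68 ± 0.127), APOBEC3D (0.138 ± 0.00667) and APOBEC3G (0.00445 ± 0.00629), with no overlap of libraries between neighbors, although the first 2 were close. In Cal27 parental cells it was APOBEC3C (31.9 ± 0.0928), APOBEC3B (8.72 ± 0.425), APOBEC3G (5.09 ± 1.02), APOBEC3F (4.22 ± 0.843) and APOBEC3D (0.698 ± 0.0169), and APOBEC3G and APOBEC3F overlapped. In Cal27 ErlR the libraries of APOBEC3F (7.14 ± 3.03), APOBEC3G (5.25 ± 2.33) and APOBEC3B (4.48 ± 1.37) overlapped in turn, below APOBEC3C (112 ± 34.2). APOBEC3A and APOBEC3H stayed under the level for members, with means of 0.162 and 0.0606 CPM over the Cal27 libraries, and APOBEC3B-AS1 was at 0.

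APOBEC3C (ENSG00000244509, chr22:39014083-39020352, plus strand) encodes a deaminase with a single catalytic domain that is widely expressed. It lay at 92.4 and 93.4 CPM in Cal27 parental cells, 89.7 and 101 CPM in AfaR and 252 and 391 CPM in ErlR. Both ErlR libraries stood above all other Cal27 libraries, but they also differed from each other more than those of the other groups (1.79, SE 0.20). APOBEC3B (ENSG00000179750, chr22:38982347-38992804, plus strand), a nuclear deaminase linked to mutation in tumors, lay at 17.6 and 16.6 CPM in Cal27 parental cells and at 10.5 and 6.77 CPM in ErlR, lower in both libraries (-0.99, SE 0.26). These neighboring genes thus lay on opposite sides of parental cells in ErlR. APOBEC3F (0.73) was higher in both ErlR libraries, while APOBEC3D (0.06) and APOBEC3G (0.02) overlapped with parental cells. APOBEC3A overlaps APOBEC3B by 10432 bases on the same strand, APOBEC3C overlaps APOBEC3D by 5990 bases, and APOBEC3F overlaps APOBEC3G by 12950 bases, so counts within these pairs are the least certain.

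In FaDu AfaR, a comparison that had no part in choosing the segment, 3 of the 5 APOBEC3 genes were called higher and 0 lower, where 6.48% of all genes were called higher and 0.954% lower. Of these 3, APOBEC3D and APOBEC3G had too few parental counts to enter the test except through resistant libraries. APOBEC3F (ENSG00000128394, chr22:39040604-39053910, plus strand), a restriction factor of retroviruses with a pair of deaminase domains, lay at 5.60 and 5.04 CPM in FaDu parental cells and at 12.0 and 15.8 CPM in AfaR. The libraries did not overlap, with a log2 fold change of 1.39 (SE 0.22, adjusted p = 0.00611 by edgeR's quasi-likelihood test with Benjamini-Hochberg adjustment), and the call was kept without each library in turn. APOBEC3D (ENSG00000243811, chr22:39014363-39033276, plus strand), another such factor, lay at 0.332 and 0.356 CPM against 1.55 and 2.49 CPM, a rise of 2.54 (SE 0.47, adjusted p = 0.0106 by edgeR). It rests on 14 counts in the 2 parental libraries and 96 in the 2 AfaR libraries, and its call was lost without parental replicate 1 (2.48), parental replicate 2 (2.58) or AfaR replicate 2 (2.15).

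APOBEC3G (ENSG00000239713, chr22:39040961-39087743, plus strand), the best known of the anti-retroviral members, was nearly absent from FaDu and present in Cal27. It had 1 and 0 counts in the FaDu parental libraries, 6 and 14 in AfaR and 11 and 12 in ErlR. Against a floor of 3 counts per library this is at least 2.89-fold higher in AfaR and at least 4.99-fold higher in ErlR. Both were called (adjusted p = 0.0338 and 0.0371 by edgeR). With so few parental counts, the gene could enter the test only through the resistant libraries where it was higher, so both calls are a description. The fitted log2 fold changes, 3.80 and 4.56, depend on the prior count, and in AfaR the fitted value was 6.07 without parental replicate 1. Without any 1 of the 4 libraries the ErlR call was lost, and the AfaR call was lost without either parental library or AfaR replicate 2. In Cal27 parental cells APOBEC3G lay at 24.6 and 32.9 CPM. APOBEC3B and APOBEC3C had log2 fold changes of 0.33 (adjusted p = 0.321) and 0.04 (adjusted p = 0.843) in FaDu AfaR by edgeR, and their values at 107 ± 7.27 and 144 ± 10.0 CPM in parental cells were the highest of the cluster.

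**Figure D3:**
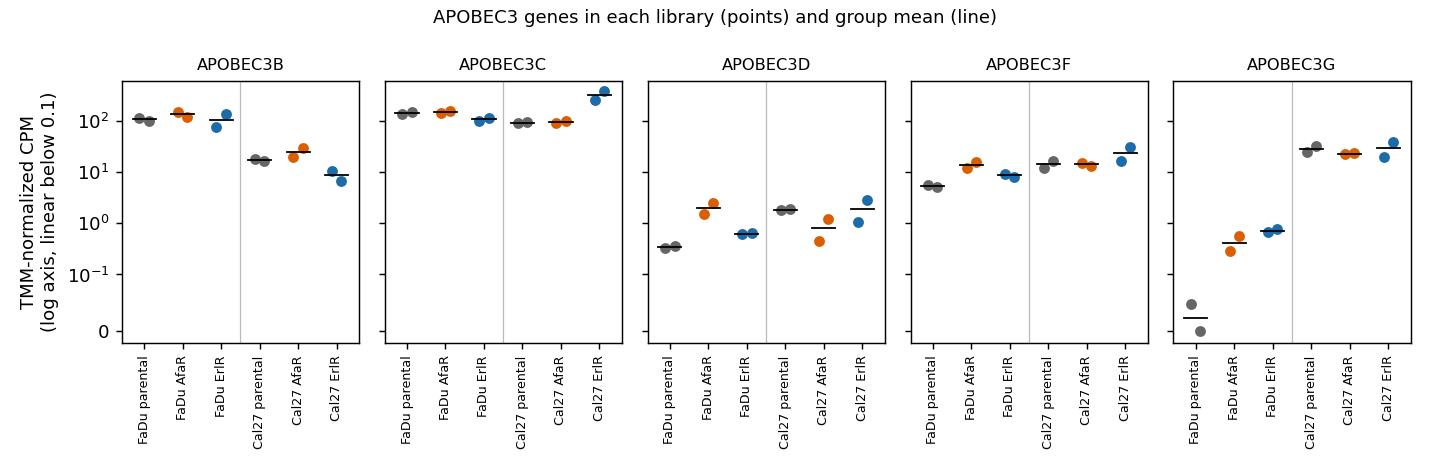
TMM-normalized CPM (log axis, linear below 0.1) of the 5 APOBEC3 members in each of the 12 libraries (points) with group means (lines), FaDu to the left and Cal27 to the right of each panel. APOBEC3C is highest in the 2 Cal27 ErlR libraries (252 and 391 CPM), APOBEC3B is lowest there (10.5 and 6.77 CPM), and APOBEC3D, APOBEC3F and APOBEC3G lie higher in FaDu AfaR than in FaDu parental cells.

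In Cal27 AfaR none of the 5 APOBEC3 genes passed the test. Their log2 fold changes were 0.51 for APOBEC3B, 0.04 for APOBEC3C, -1.16 for APOBEC3D, -0.00 for APOBEC3F and -0.33 for APOBEC3G, with adjusted p-values by edgeR from 0.136 to 0.998. At an unadjusted p under 0.05 none of the 5 passed either, and DESeq2 called none. The difference between the lines in the change from parental cells to AfaR, FaDu less Cal27, was tested as an interaction term over 12 libraries and was 3.72 for APOBEC3D (adjusted p = 0.0074), 1.41 for APOBEC3F (adjusted p = 0.0239) and 4.15 for APOBEC3G (adjusted p = 0.0194 by edgeR). All 3 were called higher, where 7.57% of genes were. In FaDu ErlR, APOBEC3B, APOBEC3C, APOBEC3D and APOBEC3F did not pass the test, with values of -0.01, -0.41, 0.86 and 0.70, and with scaling to the spike-ins the first 2 changed sign to 0.44 and 0.072.

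The list of genes of the actin cytoskeleton and of small GTPases was the longest as written, with 10 members. Of these, CARD10, a scaffold that links receptors to NF-kB, and KCTD17 belong to it only loosely. In Cal27 ErlR their median was 1.35, and 9 of 10 had both ErlR libraries above parental cells, where 32.4% of all genes did, a share from which nothing is read here or in the groups below because these values chose the segment. MICALL1, which acts in endocytic recycling, lay at 144 and 136 CPM in parental cells and at 595 and 556 CPM in ErlR (2.04). TRIOBP, an actin bundling protein, lay at 87.7 and 89.8 CPM against 245 and 295 CPM (1.61). In Cal27 AfaR the group split, with 2 called higher (KCTD17 and CYTH4) and 1 lower (SH3BP1), where 11.5% of all genes were called higher and 8.06% lower. SH3BP1, a GTPase activating protein for Rac, fell from 100.5 and 93.0 CPM to 22.4 and 26.9 CPM (-1.97, SE 0.16, adjusted p = 2.42e-05 by edgeR). In ErlR the same gene lay at 267 and 324 CPM, on the other side of the parental libraries. MYH9 passed on p alone in Cal27 AfaR, from 3216 and 2758 CPM to 5211 and 5786 CPM (0.88, adjusted p = 0.00169 by edgeR).

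The 6 members of the translation group had a median of 0.91 in Cal27 ErlR, with 3 separated upward and 1 downward, against 32.4% and 34.8% of all genes. EIF3L, a subunit of the initiation factor eIF3, lay at 226 and 255 CPM in parental cells and at 670.1 and 641 CPM in ErlR (1.44), while EIF3D, another subunit whose gene lies before the run, lay at 355 and 325 CPM against 335 and 281 CPM (-0.15). RPL3, a protein of the large ribosomal subunit past the run, was lower in both ErlR libraries (-0.35). In Cal27 AfaR 3 of the 6 passed on p alone, all lower, namely EIF3D (-0.63), EIF3L (-0.57) and RPL3 (-0.58), where 18.2% of all genes did.

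Among the 8 mitochondrial genes, the median in Cal27 ErlR was 0.34. Raised inside the run were TOMM22 (2.40), PICK1 (1.65), a scaffold that binds protein kinase C, and GCAT (1.40), an enzyme of threonine breakdown. Outside it, MIEF1 (-0.14) was not raised. Of the 8, 4 lay higher in both ErlR libraries, a gene outside the run among them, and 2 lay lower, against 32.4% and 34.8% of all genes. GCAT went from 46.6 and 45.0 CPM to 104 and 139 CPM. In Cal27 AfaR GCAT lay at 21.1 and 25.9 CPM (-0.96, adjusted p = 0.00235 by edgeR), under the fold limit. Of the 8, 1 was called higher and 0 lower in Cal27 AfaR, where 11.5% and 8.06% of all genes were. This was FOXRED2, a flavoprotein of the endoplasmic reticulum in spite of its place in this list. It rose from 39.4 and 36.8 CPM to 82.2 and 114 CPM (1.37, SE 0.17, adjusted p = 0.000314 by edgeR).

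The 7 transcription and chromatin genes had a median of 1.25 in Cal27 ErlR. Inside the run, CBX6 (1.25), SUN2 (1.73), an inner nuclear membrane protein, and MAFF (1.19), a small Maf factor, were each higher in both libraries. Past it, CBX7 and ATF4 were lower in both. The 2 Polycomb paralogs, CBX6 at 152 and 162 CPM in parental cells and 377 and 368 CPM in ErlR and CBX7 with the values given above, thus stood on opposite sides of parental cells. ATF4 was also called lower in Cal27 AfaR, from 354 and 272 CPM to 152 and 145 CPM (-1.07, SE 0.20, adjusted p = 0.00257 by edgeR), but at -0.87 without parental replicate 1 it was under the fold limit. MAFF was called lower in both AfaR models, from 67.9 and 68.4 CPM to 17.3 and 22.2 CPM in Cal27 (-1.79, adjusted p = 3.61e-05 by edgeR) and from 36.1 and 30.3 CPM to 14.6 and 14.7 CPM in FaDu (-1.18, adjusted p = 0.0113 by edgeR). The FaDu call was lost without parental replicate 1 (-1.05) or AfaR replicate 2 (-1.19), and with scaling to the spike-ins the value (-0.998) was under the fold limit.

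The 8 signaling genes had a median of 1.60 in Cal27 ErlR. CSNK1E, casein kinase 1 epsilon of the Wnt and clock pathways, lay at 179 and 147 CPM against 506 and 425 CPM (1.51), and JOSD1, a deubiquitinase, at 106 and 111 CPM against 384 and 362 CPM (1.78). ANKRD54, an ankyrin repeat protein, had 1.93. PDGFB, the B chain of platelet-derived growth factor, stood past the run and overlapped between the groups (76.9 and 82.5 CPM against 76.0 and 78.0 CPM). In FaDu, PDGFB lay at 14.9 and 18.4 CPM in parental cells, 36.0 and 37.4 CPM in AfaR and 7.70 and 9.75 CPM in ErlR, so that the 2 models stood on opposite sides of the parental cells they share. It rose in AfaR (1.14, SE 0.17, adjusted p = 0.00467 by edgeR), although at 0.99 without parental replicate 1 it lost the call, and in ErlR it passed on p alone (-0.93, adjusted p = 0.0268 by edgeR).

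Of the 9 secretory and membrane genes, 5 were separated upward and 3 downward in Cal27 ErlR, against 32.4% and 34.8% of all genes, with a median of 0.83. TMEM184B, a membrane protein, lay at 122 and 138 CPM against 399 and 359 CPM (1.55), GGA1, a clathrin adaptor of the Golgi, at 50.1 and 44.8 CPM against 125 and 107 CPM (1.29), and DNAL4, a dynein light chain, at 8.52 and 12.0 CPM against 16.5 and 20.2 CPM (0.84). The 4 apolipoprotein L and lectin genes had a median of -1.15, with 1 higher, LGALS1, and 3 lower, APOL1, APOL2 and NPTXR. The 9 members in none of these groups included DMC1, the recombinase of meiosis, which lay at 0.900 and 0.302 CPM in parental cells and at 2.34 and 7.45 CPM in ErlR, and 5 Ensembl genes with no symbol.

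Over the whole segment, Cal27 AfaR differed little from the rest of the genome. This comparison shares its parental libraries with the one the segment was chosen on. Of 66 members tested, 7 (10.6%) were called higher and 5 (7.58%) lower, close to the 11.5% and 8.06% of all genes, and the median was -0.02. The 7 higher were LGALS1, NPTXR, C1QTNF6, ELFN2, CYTH4, FOXRED2 and KCTD17, and the 5 lower were MFNG, SH3BP1, MAFF, ENSG00000278948 and ATF4. On p alone 13 were higher and 11 lower, where 19.5% and 18.2% of all genes were. At an unadjusted p under 0.05, 31 passed, a limit for which the share of all genes was not counted, so nothing is read from it. Both AfaR libraries lay above both parental libraries for 22 members and below them for 24, against 36.2% and 36.0% of all genes. The call of CYTH4, an exchange factor for ARF GTPases, was lost without parental replicate 1 (1.16) or AfaR replicate 1 (1.56).

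LGALS1, the galectin 1 gene whose product binds galactosides on the cell surface, had the largest change of the segment in Cal27 AfaR, from 72.4 and 65.4 CPM to 765 and 804 CPM (3.51, SE 0.38, adjusted p = 0.000142 by edgeR). MFNG fell from 3.24 and 1.15 CPM to 0.112 and 0.299 CPM (-3.39, SE 0.66, adjusted p = 0.00361 by edgeR). This rests on 73 counts in the 2 parental libraries and 7 in the 2 AfaR libraries, and the value ran from -4.19 without AfaR replicate 2 to -2.45 without parental replicate 1, with the call kept. NPTXR rose from 2.22 and 4.17 CPM to 20.6 and 20.5 CPM (2.68, SE 0.32, adjusted p = 0.000236 by edgeR). In none of the 3 did libraries overlap. LGALS1 is expressed by mesenchymal cells, and the fibroblast and squamous markers given above moved in the same libraries, but their part in this rise was not tested. In Cal27 ErlR, LGALS1 lay at 139 and 372 CPM, with NPTXR at 0.908 and 1.43 CPM and MFNG at 7.66 and 7.26 CPM. ELFN2, lowest in ErlR, rose in AfaR to 37.5 and 31.7 CPM (1.61, SE 0.18, adjusted p = 0.000164 by edgeR).

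In FaDu AfaR, 7 of 65 members tested (10.8%) were called higher and 3 (4.62%) lower, against 6.48% and 0.954% of all genes. The median was 0.19. At an unadjusted p under 0.05, 30 members passed, a limit for which the share of all genes was not counted, so nothing is read from it. On adjusted p alone 9 were higher and 4 lower, where 10.4% and 7.50% of all genes were. The 7 higher were APOBEC3G, APOBEC3D, DMC1, APOBEC3F, PDGFB, LGALS1 and NPTXR. Of these, APOBEC3G and APOBEC3D could enter the test only through resistant libraries. The 3 lower were BAIAP2L2, ELFN2 and MAFF. Of members 51 to 60 by position, from DNAL4 to PDGFB, 5 were called higher, with APOBEC3D and APOBEC3G among them. All 10 log2 fold changes there were positive, with a median of 0.79. Of these 10, 9 had both AfaR libraries above both parental libraries, where 32.7% of all genes did. This block was singled out after values were seen and holds overlapping APOBEC3 genes that may share reads. Nothing is therefore read from it about position. Over all members 28 lay higher and 16 lower in this way, and 32.8% of all genes lay lower. The calls depended on single libraries to a large extent, since 1 member was called higher without parental replicate 1, 4 without parental replicate 2 and 2 without AfaR replicate 2.

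DMC1 rose from 2.37 and 1.63 CPM to 6.48 and 6.25 CPM (1.66, SE 0.35, adjusted p = 0.0161 by edgeR), and BAIAP2L2, a protein that bends membranes at microvilli, fell from 21.4 and 19.2 CPM to 6.91 and 7.44 CPM (-1.50, SE 0.19, adjusted p = 0.00283 by edgeR). BAIAP2L2 and APOBEC3F kept their calls without each library in turn. DMC1 lost it without either parental library (1.96 and 1.42) or AfaR replicate 2 (1.69). NPTXR (1.05) and LGALS1 (1.13) were below the fold limit without AfaR replicate 2, with 0.82 and 0.83, and without parental replicate 1 both lost their calls, at 1.02 and 0.78. ELFN2 lay at 6.83 and 19.0 CPM in FaDu parental cells and at 5.07 and 4.59 CPM in AfaR, and its value of -1.41 (adjusted p = 0.0388 by edgeR) was -0.51 without parental replicate 2. Its call was also lost without AfaR replicate 1 (-1.49) or AfaR replicate 2 (-1.34) and in a fit of the 4 libraries alone (-1.40, adjusted p = 0.0571 by edgeR).

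FaDu ErlR, which shares its parental libraries with FaDu AfaR, had the fewest calls. Of 65 members, 2 (3.08%) were called higher and 0 lower, against 1.54% and 0.504% of all genes. DESeq2 called 0 higher and 0 lower, but it gave no adjusted p-value for either of the 2 genes, so this is no second verdict on them. At an unadjusted p under 0.05, 21 members passed, a limit for which the share of all genes was not counted. Besides APOBEC3G, the called member was SNORD43, with 1 and 0 counts in parental cells and 21 and 25 in ErlR, at least 9.99-fold higher against the floor of 3 counts (adjusted p = 0.0204 by edgeR). Like APOBEC3G, SNORD43 could enter the test only through resistant libraries, so its call is a description. Small nucleolar RNAs carry no poly(A) tail, and the gene lies inside RPL3, whose reads can fall on it. RPL3 itself lay at 2489 and 2362 CPM in parental cells and 2728 and 2217 CPM in ErlR, and its part in the SNORD43 counts was not tested. Without any 1 of the 4 libraries SNORD43 lost its call. On p alone CSNK1E was higher, from 184 and 172 CPM to 238 and 301 CPM (0.60, adjusted p = 0.0494 by edgeR). The median was -0.10, and both ErlR libraries lay above both parental libraries for 11 members and below them for 27, where 26.8% and 27.1% of all genes did. With scaling to the spike-ins 1514 genes in all were called higher and 62 lower, against 233 and 76 with TMM scaling, and 5 members were called higher.

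**Figure D4:**
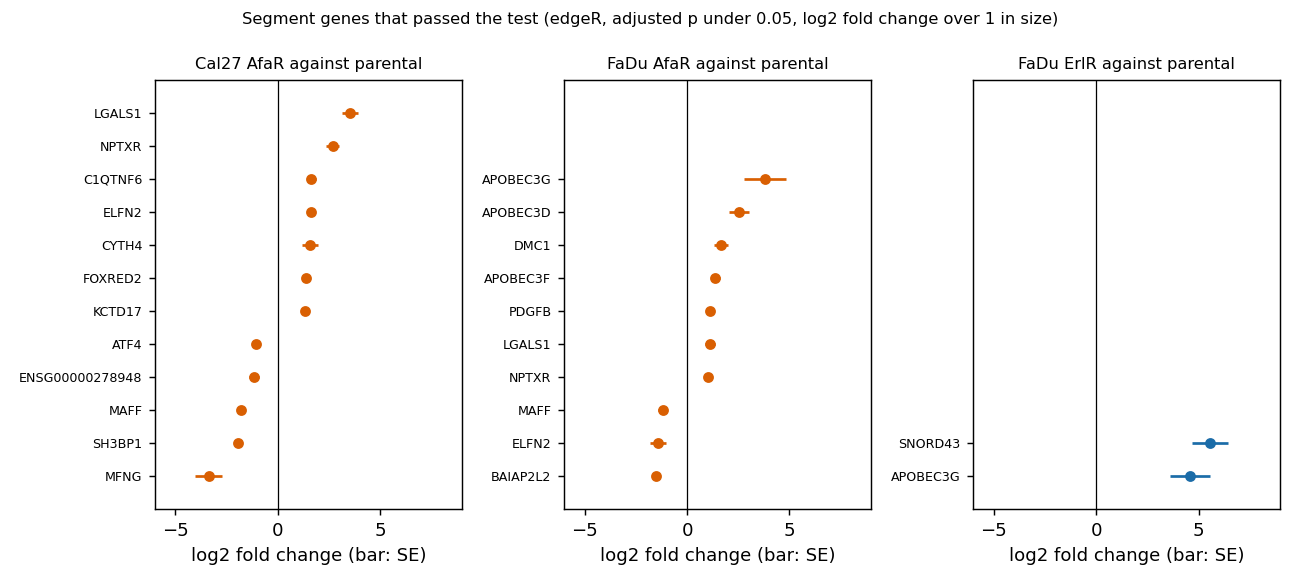
Log2 fold change with SE bars (horizontal axis) of the members called in Cal27 AfaR, FaDu AfaR and FaDu ErlR against the parental cells of the same line, 1 panel a comparison and 1 point a gene. Cal27 AfaR has 12 called members, from LGALS1 (3.51) to MFNG (-3.39), FaDu AfaR has 10, from APOBEC3G (3.80, a fitted value) to BAIAP2L2 (-1.50), and FaDu ErlR has 2.

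The AfaR effects of the lines differed for 12 members by the interaction term, 7 higher and 5 lower in FaDu, where 7.57% and 4.76% of 16240 genes were. LGALS1, called higher in both lines, rose more in Cal27 (difference -2.35, SE 0.51, adjusted p = 0.00681 by edgeR). ELFN2 rose in Cal27 and fell in FaDu (-3.00, SE 0.48, adjusted p = 0.00107 by edgeR). SH3BP1, at 87.2 and 99.5 CPM in FaDu parental cells and 125 and 119 CPM in FaDu AfaR, fell in Cal27 (2.38, SE 0.20, adjusted p = 1.15e-05 by edgeR).

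Several members encode parts of complexes whose other genes lie outside the segment, which lets a member be set beside its partners. In Cal27 ErlR, EIF3L had 1.44, while the 11 other eIF3 subunit genes had a median of 0.07 between -0.11 and 0.26, and 0 of 11 were called by edgeR, none at an adjusted p under 0.05. TOMM22 had 2.40, and 5 tested genes of the same import pore had a median of 0.46, with 0 called but 3 higher on p alone, TOMM5 (0.99), TOMM40 (0.82) and TOMM70 (0.46). CBX6 had 1.25 and CBX7 -2.38, and 10 other PRC1 genes lay between -0.08 and 0.61 with 0 called and 1, BMI1 (0.61), higher on p alone. Of all genes in Cal27 ErlR, 3.56% were called higher and 9.92% lower, and 12.3% were higher on p alone. The partners were tested and the members described, so no test of the gap was made. The segment was chosen for its high ErlR values, so nothing is read from members of the run standing above their partners. EIF3D, MYH9 and PDGFB, members outside the run, overlapped with parental cells in ErlR. In Cal27 AfaR, EIF3L (-0.57) and EIF3D (-0.63) lay among their partners, which had a median of -0.50. Of these partners, 6 of 11 were lower on p alone, where 18.2% of all genes were.

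**Figure D5:**
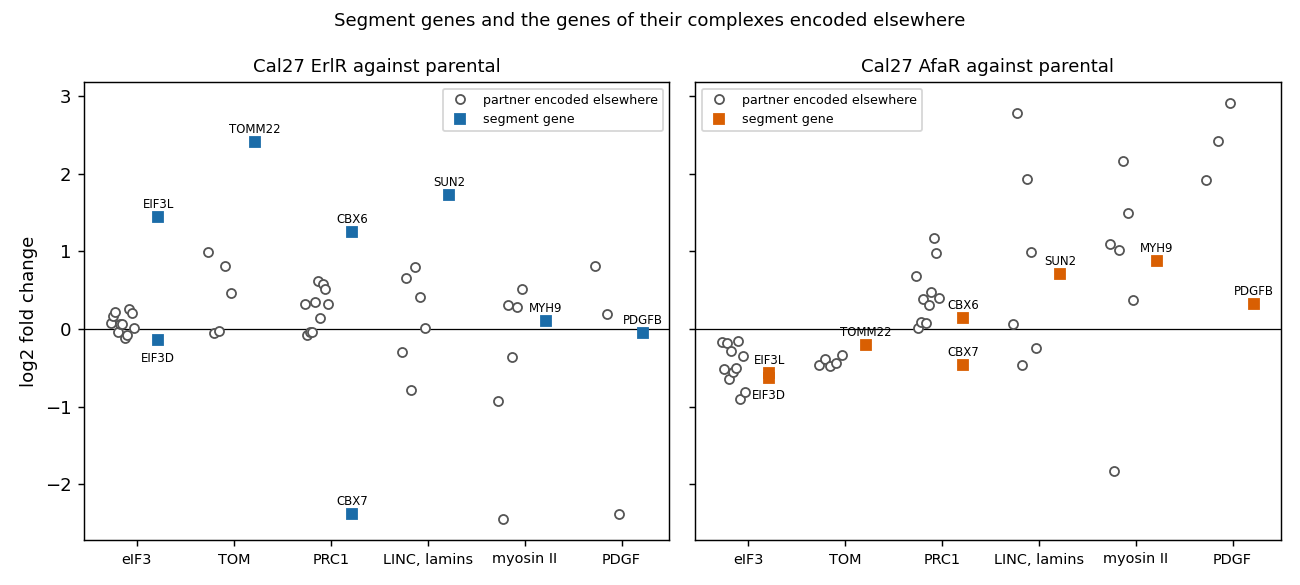
Log2 fold change (vertical axis) of segment genes (squares) and of genes of the same complex or family encoded elsewhere (open circles), in Cal27 ErlR and Cal27 AfaR against parental cells. In ErlR, EIF3L (1.44), TOMM22 (2.40), CBX6 (1.25) and SUN2 (1.73) lie above all their partners shown and CBX7 (-2.38) lies below. The segment was chosen on its ErlR values, and EIF3D, MYH9 and PDGFB, outside the run, overlapped with parental cells there. In AfaR, EIF3L and EIF3D lie within the range of the other eIF3 genes.

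For PDGF, PDGFB had 0.32 in Cal27 AfaR and did not pass the test. There 3 genes of ligands and receptors encoded elsewhere were tested and all 3 were called higher, where 11.5% of all genes were. PDGFRB rose from 1.69 ± 0.246 to 12.7 ± 0.720 CPM (2.91, SE 0.41, adjusted p = 0.000639 by edgeR), PDGFC had 2.43 and PDGFA had 1.92. PDGFRB is also among the fibroblast markers. In FaDu AfaR, where PDGFB rose, PDGFA fell from 87.2 ± 6.49 to 33.4 ± 3.85 CPM (-1.39, SE 0.19, adjusted p = 0.00386 by edgeR).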

How the data were processed

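Counts of reads per Ensembl gene, deposited by the authors for each of the 12 libraries, were used as they stood. Per the labels' processing notes and the study's methods, reads were trimmed with Trimmomatic 0.36, aligned to GRCh38 with STAR 2.5.2b and counted with featureCounts of Subread 1.5.2. The authors' normalized tables were not used. The 92 ERCC sequences were left out of library sizes.

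Each line was fitted on its 6 libraries in edgeR 4.0.16 (R 4.3.3) with filterByExpr, TMM scaling and the quasi-likelihood test, leaving 3 residual degrees of freedom, with Benjamini-Hochberg adjustment over 15269 genes in Cal27 and 15092 in FaDu. The script was tested on simulated data. DESeq2 1.42.0 and other scalings, filters and sample sets were alternatives. FPKM were TMM-normalized CPM over 12 libraries per kb of exon length. Symbols were matched for 56948 gene identifiers.

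The members and lists were chosen with earlier results of these data known. Members named were the APOBEC3 genes, the 4 most abundant of each list in Cal27, the 3 highest and 3 lowest in Cal27 ErlR at 5 CPM or more, those at the edges and at the level limit, and the 3 largest called changes elsewhere. Other members were named after their values were seen. Values of 1 member and of some genes outside the segment are not reported here.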

Additional observations from a re-analysis of the deposited data

Results flagged for a closer look

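The response to afatinib selection differed between FaDu and Cal27 for 12 members, tested as the change from parental cells to AfaR in FaDu less that in Cal27, an interaction term in edgeR's quasi-likelihood fit of all 12 libraries (Benjamini-Hochberg adjusted p under 0.05 and a difference over 1 on the log2 scale). A total of 7 of the 66 members (10.6%) were higher in FaDu and 5 (7.58%) lower, where 7.57% and 4.76% of all genes were. The APOBEC3 genes had 3 of the positive differences, 3.72 for APOBEC3D (SE 0.81), 1.41 for APOBEC3F (SE 0.39) and 4.15 for APOBEC3G (SE 1.09). The last is a fitted value that depends on the near-absence of counts in FaDu parental cells. The APOBEC3D call was kept without each library in turn. The APOBEC3F call was lost in 5 of the leave-outs, at 1.19 without Cal27 parental replicate 2, 1.31 without Cal27 AfaR replicate 2, 1.49 and 1.33 without FaDu parental replicates 1 and 2 and 1.20 without FaDu AfaR replicate 2. The APOBEC3G call was lost without FaDu parental replicate 2 (3.35) or FaDu AfaR replicate 2 (3.57).

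The other positive differences were 2.38 for SH3BP1, 1.33 for MICALL1 (SE 0.20), 2.45 for MFNG (SE 0.78, adjusted p = 0.0466 by edgeR) and 1.65 for ENSG00000278948 (SE 0.53, adjusted p = 0.0488 by edgeR). SH3BP1 and MICALL1 kept their calls without each library. MFNG lost its call without any library except Cal27 parental replicate 2 and FaDu AfaR replicate 1, with values from 1.52 to 3.28. ENSG00000278948 lost its call in 7 of the leave-outs, with 0.72 without FaDu AfaR replicate 2, and with RLE size factors (adjusted p = 0.0505 by edgeR), and it kept the call without FaDu AfaR replicate 1. The negative differences, larger in Cal27, were -3.00 for ELFN2, -2.35 for LGALS1, -1.62 for NPTXR (SE 0.35), -1.28 for FOXRED2 (SE 0.26) and -1.20 for C1QTNF6 (SE 0.30). C1QTNF6, a secreted protein of the complement C1q and tumor necrosis factor family, lost its call in 3 leave-outs, without Cal27 parental replicate 2 (-1.07), FaDu parental replicate 2 (-1.11) or FaDu AfaR replicate 1 (-1.04). The other 4 kept theirs.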

How the results depend on the processing

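With 2 libraries per group, single libraries decided many calls. Leaving out each library in turn moved the median log2 fold change of the members between 1.00 and 1.22 in Cal27 ErlR, between 0.044 and 0.26 in FaDu AfaR and between -0.20 and -0.037 in FaDu ErlR. Members called higher ranged from 1 to 8 in FaDu AfaR, from 0 to 1 in FaDu ErlR and from 3 to 7 by the interaction term, and members called lower in FaDu AfaR ranged from 1 to 2. Without FaDu parental replicate 1, 4 interaction calls were higher, without FaDu parental replicate 2 there were 3 and without FaDu AfaR replicate 2 there were 4. Genes of the outside lists called ranged from 4 to 9 in FaDu AfaR, with 4 without FaDu parental replicate 1, and from 1 to 3 in FaDu ErlR. Scaling to the ERCC spike-ins shifted the median of all genes by 0.18 in FaDu AfaR and 0.49 in FaDu ErlR, and with it the members' medians became 0.37 and 0.38, and 5 members were called higher in FaDu ErlR. There DESeq2, which gave no adjusted p-value for APOBEC3G or SNORD43, called 0 higher. The replicate block called 1 higher and a minimum of 5 CPM left 1, while 2 were called lower with no filter and 1 on unadjusted p. Values near 0 changed sign, all without passing the test. APOBEC3F in Cal27 AfaR, at -0.00, was 0.0051 with DESeq2, 0.0054 with RLE factors, 0.0066 with ERCC scaling, 0.0059 with no filter and 0.035 with the replicate block, and ranged between -0.19 and 0.22 in the leave-outs. APOBEC3C ranged from -0.039 to 0.12 in the Cal27 AfaR leave-outs and from -0.039 to 0.10 in those of FaDu AfaR. APOBEC3B in FaDu ErlR was 0.44 with ERCC scaling and from -0.47 to 0.34 in leave-outs, and APOBEC3C was 0.072 with ERCC scaling. The other counts stayed within 1.5 times, with 27 to 34 higher and 5 to 7 lower in Cal27 ErlR and 6 to 8 and 4 to 7 in Cal27 AfaR. The replicate numbers did not pair the libraries, since correlations of deviations between same-numbered libraries were -0.20, 0.10 and -0.06 in Cal27 and 0.10, -0.10 and -0.09 in FaDu. With the replicate block APOBEC3G lost its call in FaDu AfaR (adjusted p = 0.0539 by edgeR) and FaDu ErlR (0.0609), ELFN2 in FaDu AfaR (0.0507), and the interaction lost MFNG (0.0572) and ENSG00000278948 (0.0577). The cause of these changes was not tested beyond the fewer libraries in each leave-out.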

Other observations

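Genes outside the segment that are tied to its members by function were tested over 10 lists of 97 genes, and 30 were called in Cal27 AfaR, 12 in Cal27 ErlR, 11 in FaDu AfaR and 1 in FaDu ErlR by edgeR. Of all genes, 11.5% were called higher and 8.06% lower in Cal27 AfaR, and 3.56% and 9.92% in Cal27 ErlR. The shares were 6.48% and 0.954% in FaDu AfaR, and 1.54% and 0.504% in FaDu ErlR. Not all of the 97 were tested, and nothing is read from the totals. Interferon targets, which several APOBEC3 genes belong to as well, were called higher in both AfaR models. In Cal27 AfaR 10 of 12 were called higher, where 11.5% of all genes were, with a median of 2.84, and IFI44L rose from 1.41 ± 0.546 to 110.4 ± 51.6 CPM (6.28). In FaDu AfaR 7 of 12 were called higher, where 6.48% of all genes were, with a median of 1.58, and IFI27 rose from 4.40 ± 0.963 to 231 ± 51.9 CPM (5.71, adjusted p = 3.59e-05 by edgeR). The APOBEC3 median beside these was -0.00 in Cal27 AfaR and 1.39 in FaDu AfaR, and no test joined the lists. The FaDu AfaR median includes APOBEC3D and APOBEC3G, which could enter the test only through resistant libraries. Nothing is therefore read from its nearness to the interferon median. In FaDu ErlR 1 of 12 was called higher, IFI27 (2.40), and in Cal27 ErlR 2 of 12 were, IFI6 (1.69) and IFI27 (1.51), where 1.54% and 3.56% of all genes were.

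Targets of ATF4 were called lower in both Cal27 models, 6 of 12 in each, with 1 called higher in ErlR and 0 in AfaR. Of all genes, 9.92% were called lower in ErlR and 8.06% in AfaR. ASNS, asparagine synthetase, fell from 115 ± 33.6 CPM to 34.5 ± 6.15 CPM in ErlR (-1.74, adjusted p = 0.00102 by edgeR) and to 38.5 ± 8.13 CPM in AfaR (-1.58). Both comparisons share the parental libraries. In FaDu AfaR, 2 targets were called higher and 0 lower, where 6.48% and 0.954% of all genes were. Of 13 tested genes of the wider AID/APOBEC family and uracil repair, 0 were called in Cal27 ErlR, FaDu AfaR and FaDu ErlR, and 1 in Cal27 AfaR, HMCES, a shield of abasic sites, which fell from 104 ± 0.179 to 49.7 ± 7.26 CPM (-1.07, adjusted p = 0.000643 by edgeR). Myosin II genes had 4 of 6 called higher and 1 lower in Cal27 AfaR, led by MYL9 (2.16), and LINC and lamin genes had 2 of 6 higher, SYNE1 (2.78) and SYNE3 (1.94), where 11.5% of all genes were called higher and 8.06% lower. Among the 12 factors of the NF-kB, cell cycle and interferon pathways, 2 were called higher and 0 lower in Cal27 AfaR, IRF9 (2.20) being 1 of the 2. There 11.5% of all genes were called higher and 8.06% lower. In Cal27 ErlR 0 of the 12 were called higher and 1 lower, where 3.56% and 9.92% of all genes were.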
